A study of Mus musculus with 9 samples.

Results

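The complement genes C1ra, C1s1, C3, C4b, Cfb, Serping1, Cd55 and Cd59a were followed through RNA-seq of 3 immortalized mouse striatal cell lines. They were taken by symbol from the deposited table of read counts per gene, which gave all 8 of the 8 among 36410 genes listed. The lines carry huntingtin (Htt) alleles with a wild-type or an expanded polyglutamine tract in the knocked-in exon 1. Control cells (STHdhQ7/Q7) have 7 repeats on both alleles, HD-het cells (STHdhQ7/Q111) have 7 and 111 repeats, and HD-homo cells (STHdhQ111/Q111) have 111 repeats on both alleles. All were labelled as striatal cells of strain C57/BL6, derived from mouse embryos, and none received a treatment. Each genotype was a single cell line with 3 libraries, so genotype and line cannot be told apart. The labels do not say whether the libraries of a line came from separate cultures, and the p-values below measure only the spread between these libraries.

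Complement is a cascade of blood and tissue proteins that tags cells and debris for removal. In the classical pathway, C1q recognises a target and the attached proteases C1r and C1s cleave C4 and C2. The resulting convertase cleaves C3, the step at which all routes meet, and factor B (Cfb) amplifies it through the alternative pathway. C1 inhibitor (Serping1) blocks C1r and C1s, CD55 speeds the decay of the convertases, and CD59 stops the membrane attack complex from forming. In brain, complement is known for tagging synapses that microglia remove, and C1q there comes mainly from microglia.

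The main difficulty in counting these genes is that 5 of the 8 have a closely related copy in the mouse genome, and the sequences below show how alike the copies are. Each pair is shown over the gap-free 60-base stretch nearest the middle of its aligned coding sequence in the GENCODE transcripts (GRCm38), 5′ to 3′ in the sense of the gene, and was not picked for its likeness. Capitals mark bases that differ between the copies. The C1ra stretch spans chr6:124517810-124519406 on the plus strand, over exons 7 and 8, and differs from C1rb at 3 bases. The C1s1 stretch lies at chr6:124533909-124533968 on the minus strand, in exon 9, and has 0 differences from C1s2. The C4b stretch spans chr17:34735557-34735744 on the minus strand, over exons 20 and 21, and differs from C4a at 9 bases. The Cd55 stretch spans chr1:130456902-130458141 on the minus strand, over exons 4 and 5, and has 0 differences from Cd55b. The Cd59a stretch spans chr2:104110833-104114022 on the plus strand, over exons 4 and 5, and differs from Cd59b at 11 bases.
C1ra: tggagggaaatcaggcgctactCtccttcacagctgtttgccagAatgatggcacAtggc
C1rb: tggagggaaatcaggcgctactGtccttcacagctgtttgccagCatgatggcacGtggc
C1s1 and C1s2: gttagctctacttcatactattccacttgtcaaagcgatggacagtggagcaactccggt
C4b: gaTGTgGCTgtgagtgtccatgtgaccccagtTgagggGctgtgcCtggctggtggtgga
C4a: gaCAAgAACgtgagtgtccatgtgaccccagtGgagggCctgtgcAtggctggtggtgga
Cd55 and Cd55b: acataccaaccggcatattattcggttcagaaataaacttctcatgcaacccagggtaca
Cd59a: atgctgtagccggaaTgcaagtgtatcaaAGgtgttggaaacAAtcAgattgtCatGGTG
Cd59b: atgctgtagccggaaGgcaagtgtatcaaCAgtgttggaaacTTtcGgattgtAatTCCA

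Over the aligned part of the transcripts, identity was 97.9% for C1ra and C1rb, 96.0% for C1s1 and C1s2, 96.0% for C4b and C4a, 91.8% for Cd55 and Cd55b and 83.5% for Cd59a and Cd59b. Of all 50-base stretches of the C1ra transcript, 48.0% occur unchanged in C1rb, against 24.3% for C1s1 in C1s2, 35.2% for C4b in C4a, 13.3% for Cd55 in Cd55b and 3.98% for Cd59a in Cd59b. C3 and Serping1 had no such stretch in any other annotated gene. Cfb shares 81.4% with the overlapping gene model Gm20547, which is not analysed here. Values of C1ra, C1s1, C4b, Cd55 and Cfb are therefore uncertain in how reads were divided, and the copies are given beside them.

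The table of promoters from RefSeq (GRCm38.p6) held 5 of the 8 genes, namely C1ra, C1s1, C3, Cd55 and Cd59a. The 250 bases before the start are shown for C3, which differed most between lines, and for Cd59a, the only gene with an interferon-type motif there. The C3 sequence lies at chr17:57228137-57228386 on the minus strand, and capitals mark a match to a C/EBP motif. The Cd59a sequence lies at chr2:104095551-104095800 on the plus strand, and capitals mark a match to the interferon-stimulated response element.
C3: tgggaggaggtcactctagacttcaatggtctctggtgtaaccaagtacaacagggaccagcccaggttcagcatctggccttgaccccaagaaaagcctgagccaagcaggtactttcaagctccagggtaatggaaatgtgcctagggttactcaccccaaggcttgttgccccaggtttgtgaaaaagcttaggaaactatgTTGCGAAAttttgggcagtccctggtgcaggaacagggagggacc
Cd59a: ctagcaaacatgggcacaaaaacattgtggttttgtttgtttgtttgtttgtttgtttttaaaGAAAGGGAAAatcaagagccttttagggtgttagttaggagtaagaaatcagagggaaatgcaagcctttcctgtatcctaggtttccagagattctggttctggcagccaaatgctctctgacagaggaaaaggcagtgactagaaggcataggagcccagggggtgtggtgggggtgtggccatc

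Each window of 300 bases, from 250 before to 50 after the start, was searched on both strands for 5 motifs, some of which can overlap. The interferon-stimulated response element (GAAANNGAAA) was found in Cd59a, at bases −187 to −178 from the start, and in 3.44% of all 32851 promoters. The C/EBP motif (TTGCNNAA) was found at −45 to −38 from the C3 start, at −242 to −235 from a C1s1 start and at 17 to 24 after the C1ra start, and in 10.8% of all promoters. The interferon-gamma activated sequence (TTCNNNGAA) was found at 33 to 41 after the C1ra start and in 8.30% of all promoters. This RefSeq start of C1ra is not the start of the GENCODE gene, chr6:124512405. The 250 bases before it, chr6:124512371-124512620, extend into that gene, and both C1ra matches lie inside it. A TATA box (TATAAA) was found at 15 to 20 after the C3 start and in 13.6% of all promoters. The NF-kappaB motif (GGGNNTTTCC) had no match in these windows and one in 1.63% of all promoters. Cd55 had no match to any of the motifs. A match is a description of the letters only.

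The libraries held 29507665 to 41197931 counted reads, so 3 reads, taken as the floor of detection, amounted to 0.0710 to 0.101 CPM. CPM are counts scaled to a common library total, and normalized CPM below also include scaling by the trimmed mean of M values (TMM). Floors and exact counting intervals cover counting error only. SE and intervals of 2 SE come from the edgeR fit, and with few reads they can be narrower than counting error alone. For Serping1 in HD-het against control the SE was 0.535 in edgeR and 1.12 in DESeq2. Htt itself was at 93.0 to 104 normalized CPM in control, 61.1 to 64.0 in HD-het and 19.2 to 21.7 in HD-homo cells. Of 10 striatal projection neuron markers, 3 were at or under the floor in every library, among them Drd1 with 0 reads and Drd2, and the list summed to 90.2 to 100.2 normalized CPM in control, 115 to 118 in HD-het and 162 to 184 in HD-homo libraries, with Foxp1 the highest. Of 8 neuronal markers, Rbfox3, Snap25, Syt1 and Nefl were at or under the floor, and the list summed to 143 to 175, 114 to 120.4 and 93.0 to 117 in the same order, with Map2 the highest. The fibroblast and mesenchymal list of 6 genes summed to 2485 to 3376 normalized CPM in control, 7514 to 8723 in HD-het and 6370 to 6846 in HD-homo cells. Of 12 microglia and macrophage markers, Aif1 and Tyrobp had 0 reads and Trem2 and Spi1 were at or under the floor. That list summed to 36.3 to 38.1, 98.6 to 107 and 46.1 to 52.9 normalized CPM in the respective lines. The 8 astrocyte markers, with Aqp4 and S100b at or under the floor, summed to 329 to 377, 214 to 233 and 402 to 462. The part of these lists in the complement results was not tested, and in RNA from whole cultures fewer cells of a type and less RNA per cell cannot be told apart.

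HD-homo replicate 3 stood apart from the other HD-homo libraries for several complement genes, with a C4b level 2.53 times and a C1s1 level 1.80 times the mean of the other 2. Over the tested genes with enough reads, replicates 1 and 2 also differed. The chi-square per gene, larger for libraries less alike, was 26.9 for HD-homo replicates 1 and 2. It was 22.6 for 1 and 3 and 39.2 for 2 and 3. That value also grows with depth, and replicate 2 was the deepest. Results that turn on replicate 3 are given with and without it.

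Of the 8 genes, 7 passed the filter on low counts and were tested, and Cfb did not pass. A gene passed the test at an adjusted p under 0.05. In HD-homo against control cells, 5 were higher, 1 was lower and 1 did not pass. Among all 13508 genes tested, 58.6% passed in that comparison, 29.6% higher and 28.9% lower. In HD-het against control cells, 2 were higher, 2 were lower and 3 did not pass, where 65.1% of all genes passed, 33.8% higher and 31.4% lower. In HD-homo against HD-het cells, 6 were higher, 0 were lower and 1 did not pass, where 71.6% of all genes passed, 36.0% higher and 35.6% lower. The 3 comparisons share libraries and are not independent. The median log2 fold change of the 7 was 1.88, −0.50 and 1.45 in these comparisons, against 0.01, 0.03 and 0.00 over all genes tested. The genes were chosen with earlier results of these data known. C3 passed the filter only through the HD-homo libraries, C1s1 only through the HD lines and Serping1 only through the control libraries. The counts and medians therefore describe the list and are not a test of it.

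**Figure D1:**
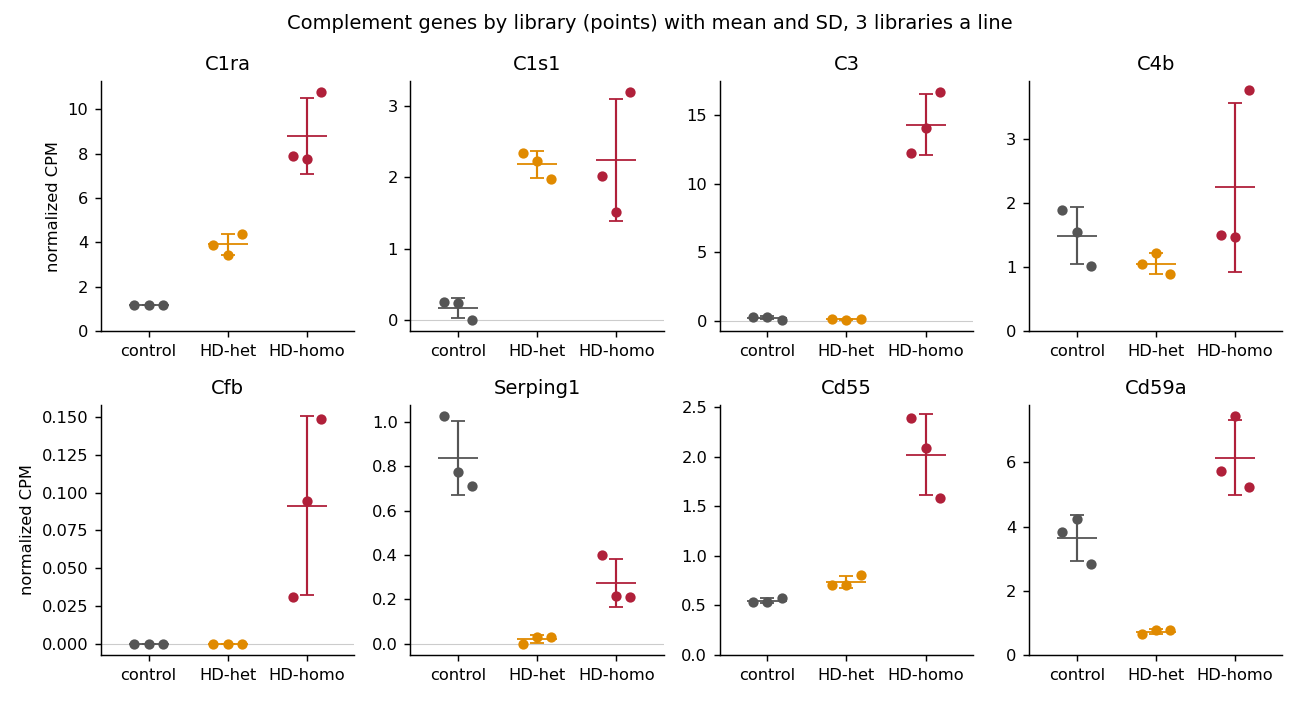
Normalized CPM of the 8 complement genes (vertical axes, each with its own scale) in control, HD-het and HD-homo libraries. Points are libraries, horizontal strokes are means and bars are SD (n = 3). C3 is between 12.2 and 16.6 in HD-homo libraries and at most 0.297 elsewhere, and Serping1 and Cd59a are lowest in HD-het.

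The classical pathway proteases C1r and C1s were higher in the HD lines than in control cells, C1ra in steps and C1s1 to about the same level in HD-het and HD-homo. C1ra (chr6:124512405-124523443, plus strand) encodes the protease that activates C1s. Its normalized CPM was 1.18, 1.19 and 1.18 in the control libraries, 3.89, 3.44 and 4.40 in HD-het and 7.88, 7.77 and 10.8 in HD-homo. No library of a line reached the range of another. HD-het cells exceeded control 3.30-fold in C1ra (log2 fold change 1.72, SE 0.184, adjusted p = 1.01e-05). HD-homo cells exceeded control 7.44-fold (log2 fold change 2.89, SE 0.176, adjusted p = 1.00e-07). HD-homo exceeded HD-het cells by 2.25-fold (log2 fold change 1.17, SE 0.152, adjusted p = 3.25e-05).

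C1s1 (chr6:124530345-124542359, minus strand) encodes the protease that cleaves C4 and C2. Control libraries held 8, 8 and 0 reads of it, HD-het libraries 83, 73 and 66 and HD-homo libraries 66, 64 and 107. The control libraries were thus all under both HD lines, whose ranges overlapped. The mean was 0.162 ± 0.141 normalized CPM in control (SD, n = 3), 2.18 ± 0.186 in HD-het and 2.24 ± 0.859 in HD-homo cells. Against control, C1s1 was 13.4-fold higher in HD-het (log2 fold change 3.68, SE 0.495, adjusted p = 5.90e-05) and 13.8-fold higher in HD-homo (3.71, SE 0.493, adjusted p = 6.42e-05). Counting error alone gave exact 95% intervals from 7.84 to 23.2-fold and from 7.86 to 23.2-fold for these ratios. Between the HD lines the log2 fold change was 0.03, with an interval of 2 SE from −0.63 to 0.69 (adjusted p = 0.944). Without HD-homo replicate 3 it was −0.32 (adjusted p = 0.358), and without HD-het replicate 3 it was −0.04 (adjusted p = 0.933).

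C1ra and C1s1 lie 6.90 kb apart on chromosome 6, and their copies and the C1r-like gene C1rl lie in the same stretch. C1rl was higher than control in HD-het (log2 fold change 1.80, adjusted p = 9.95e-06) and HD-homo cells (1.46, adjusted p = 6.45e-05). The 3 tested genes that follow the cluster had smaller fitted log2 fold changes for HD-homo against control, 1.23 for Lpcat3, 0.29 for Emg1 and 0.21 for Phb2. They are the next tested genes on the map and were added after their values were seen. In HD-het against control they gave 0.08, −0.52 and −0.39. Genes further along are not reported here. For HD-homo against HD-het their values of 1.15, 0.81 and 0.60 were above those of C1s1 (0.03), C1s2 (0.14) and C1rl (−0.34), and that of Lpcat3 was close to C1ra (1.17) and C1rb (1.14).

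**Figure D2:**
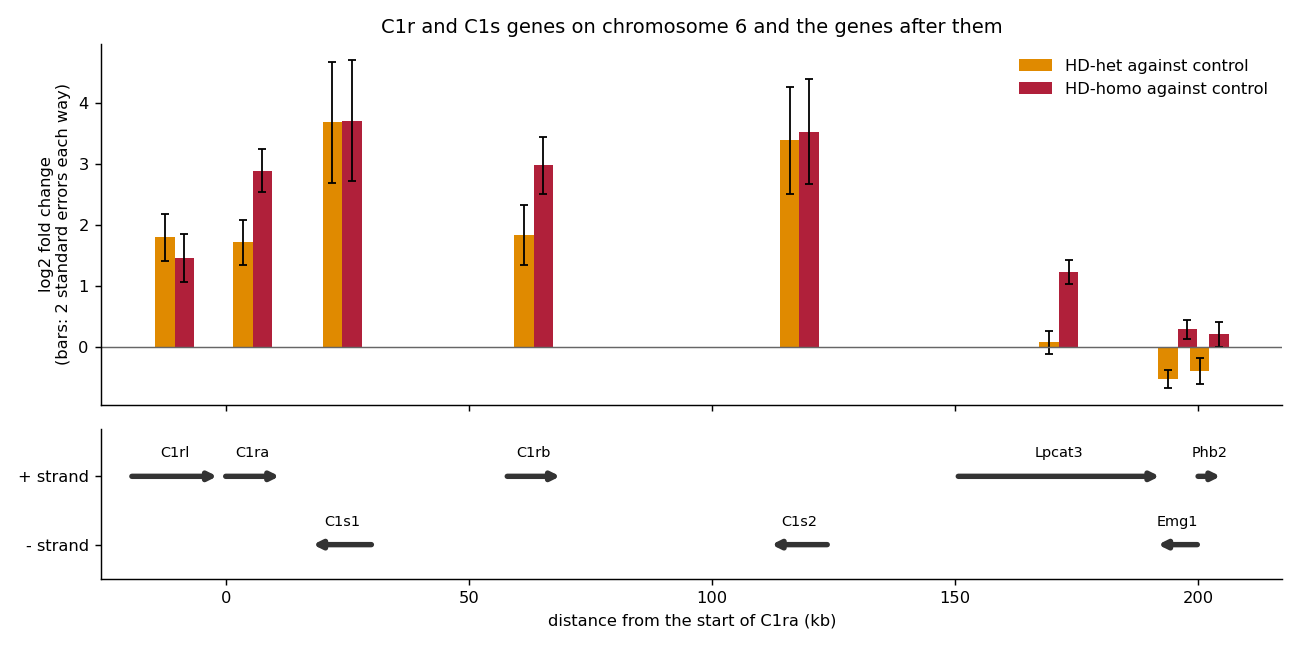
Fitted log2 fold change against control (upper panel, bars with 2 SE each way) of the genes around C1ra, and their extent and strand (lower panel) against distance from the start of C1ra in kb. The 5 C1r and C1s genes lie between 1.46 and 3.71, with C1s1 and C1s2 above 3 in both HD lines.

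The central components behaved differently from each other, with C3 high in HD-homo cells, C4b uncertain and Cfb near the limit of detection. C3 (chr17:57203970-57228136, minus strand) encodes the protein whose cleavage products coat targets and call in immune cells. The control libraries had 9, 10 and 3 reads of C3, HD-het had 5, 3 and 5, and HD-homo had 398, 593 and 558. All 3 HD-homo libraries were far above the others, and the control and HD-het ranges overlapped. C3 was at 14.3 ± 2.23 normalized CPM in HD-homo (SD, n = 3), 0.226 ± 0.108 in control and 0.127 ± 0.0314 in HD-het cells. HD-homo cells exceeded control 63.2-fold (log2 fold change 5.93, SE 0.242, adjusted p = 3.87e-09), which ranked C3 at 155 of 13508 genes by increase. The excess over HD-het was 112-fold (log2 fold change 6.76, SE 0.262, adjusted p = 1.94e-09). With 22 reads in control and 13 in HD-het, the exact 95% counting interval was 40.8 to 99.1-fold for the first ratio and 65.2 to 210.4-fold for the second. HD-het against control gave a log2 fold change of −0.83 (SE 0.481, adjusted p = 0.150), and without control replicate 3 it was −1.15 (adjusted p = 0.0390).

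C4b (chr17:34728380-34743882, minus strand) encodes the component cleaved by C1s. It had 1.90, 1.55 and 1.01 normalized CPM in control, 1.04, 1.22 and 0.899 in HD-het and 1.50, 1.47 and 3.76 in HD-homo libraries. A single HD-homo library, replicate 3, stood above all the rest. HD-homo against control gave a log2 fold change of 0.58 (SE 0.362, adjusted p = 0.195), which became −0.012 without that library (adjusted p = 0.971). HD-het against control gave −0.50 (SE 0.394, adjusted p = 0.283). HD-homo exceeded HD-het cells (1.08, SE 0.376, adjusted p = 0.0231), and every HD-homo library was above every HD-het library. That call did not hold without HD-homo replicate 3 (0.49, adjusted p = 0.107), without HD-het replicate 1 (1.07, adjusted p = 0.0603) or without HD-het replicate 3 (0.97, adjusted p = 0.0697).

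Cfb (chr17:34856374-34862518, minus strand), which lies 112 kb from C4b in the major histocompatibility region, encodes the protease of the alternative pathway convertase. It had 0 reads in all 6 control and HD-het libraries and 1, 4 and 5 reads in HD-homo. Only 2 of these libraries were above the floor of 3 reads. Cfb did not pass the filter on low counts and was not tested in the main fit, and no fold change is given. At this depth 3 reads a library allow up to 0.101 CPM in the libraries without a read.

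Of the regulators, Serping1 and Cd59a were lowest in HD-het cells, and Cd55 and Cd59a were highest in HD-homo cells. Serping1 (chr2:84765387-84775444, minus strand) encodes C1 inhibitor, a secreted serpin. It had 33, 26 and 21 reads in control, 0, 1 and 1 in HD-het and 13, 9 and 7 in HD-homo libraries. The 3 lines did not overlap, and HD-het was under the floor throughout. HD-homo cells had 3.06-fold less Serping1 than control (log2 fold change −1.63, SE 0.324, adjusted p = 0.00125). With 80 reads in control and 2 in HD-het, the ratio of control to HD-het was 42.6, with an exact 95% counting interval from 11.4 to 358 (adjusted p = 8.01e-06). The ratio of HD-homo to HD-het was 13.6, with an interval from 3.44 to 118 (adjusted p = 5.29e-04). Among the 7 genes tested, Serping1 alone passed as lower than control in both HD lines. The gene passed the low-count filter only through the control libraries, so its calls are not independent of that selection. In a fit of the HD-homo and HD-het libraries alone it did not pass the filter.

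Cd55 (chr1:130439027-130462744, minus strand) encodes decay-accelerating factor, a protein anchored to the outer membrane. It was at 0.529, 0.535 and 0.575 normalized CPM in control, 0.705, 0.701 and 0.809 in HD-het and 2.39, 2.08 and 1.58 in HD-homo libraries. HD-homo libraries were the highest, and the HD-het libraries lay just above the control ones without overlap. Cd55 in HD-homo cells exceeded control 3.70-fold (log2 fold change 1.88, SE 0.212, adjusted p = 1.74e-05). The excess over HD-het was 2.73-fold (1.45, SE 0.200, adjusted p = 5.39e-05). HD-het against control gave 0.43, with an interval of 2 SE from −0.05 to 0.91, and did not pass the test (adjusted p = 0.133).

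Cd59a (chr2:104095801-104115354, plus strand) encodes CD59, which blocks assembly of the membrane pore. It was at 3.83, 4.25 and 2.84 normalized CPM in control, 0.649, 0.762 and 0.779 in HD-het and 5.73, 7.46 and 5.25 in HD-homo libraries. The lines did not overlap, with HD-het lowest and HD-homo highest. Control exceeded HD-het cells 4.99-fold in Cd59a (log2 fold change −2.32, SE 0.222, adjusted p = 4.47e-06). HD-homo cells exceeded control 1.69-fold (0.76, SE 0.176, adjusted p = 0.00344). Between the HD lines the difference was 8.42-fold, with HD-homo higher (3.08, SE 0.214, adjusted p = 2.08e-07). The heterozygous line thus lay outside the range between the homozygous lines for Cd59a and for Serping1.

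**Figure D3:**
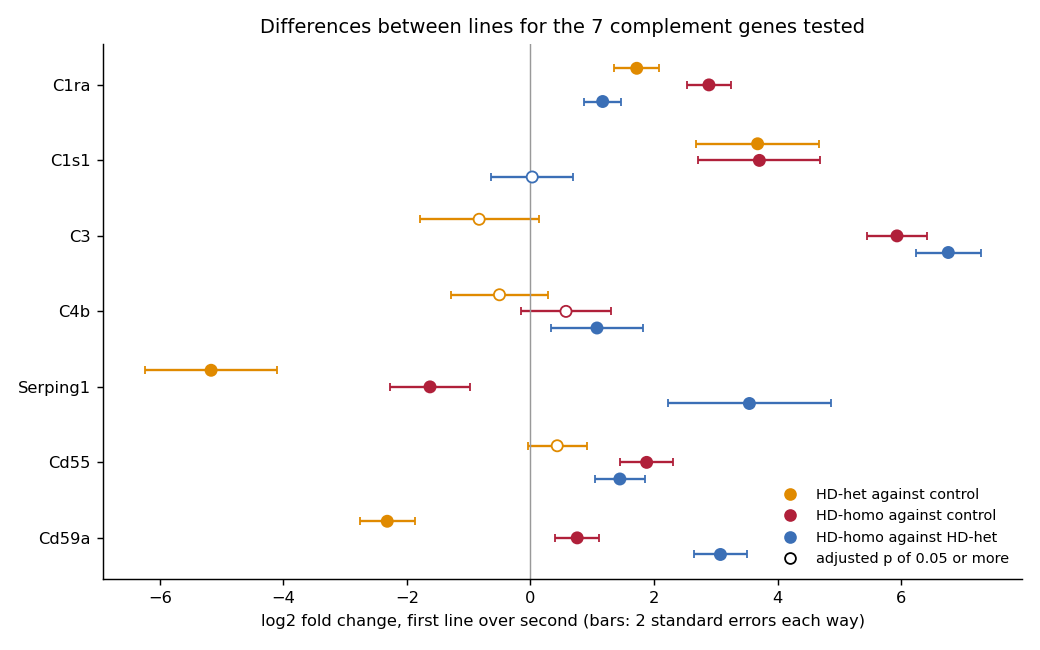
Log2 fold change of the 7 tested complement genes in the 3 comparisons (horizontal axis; bars are 2 SE each way, filled points passed at an adjusted p under 0.05). C3 lies at 5.93 and 6.76 in the comparisons of HD-homo, and Serping1 and Cd59a lie to the left of 0 in HD-het against control. The Serping1 values that involve HD-het rest on libraries under the floor.

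Between genes, levels can be compared only per length of transcript. In control cells Cd59a had the highest level, 2.02 ± 0.401 normalized CPM per kb of transcript (SD, n = 3), then Serping1 at 0.473 ± 0.0948 and C1ra at 0.398 ± 0.00131. Next came C4b at 0.276 and Cd55 at 0.216, whose ranges overlapped, as did those of C1s1 at 0.0551 and C3 at 0.0441 below them. In HD-het cells the order began with C1ra at 1.31 ± 0.161, C1s1 at 0.740 ± 0.0631 and Cd59a at 0.404 ± 0.0392, followed by Cd55 at 0.291 and C4b at 0.196, with no overlap between neighbours. C3 and Serping1 were last among the genes with reads, at 0.0248 and 0.0114. In HD-homo cells Cd59a at 3.40 ± 0.643, C1ra at 2.96 ± 0.576 and C3 at 2.78 ± 0.434 overlapped at the top. Cd55 at 0.797, C1s1 at 0.761 and C4b at 0.417 followed, each overlapping the next, with Serping1 at 0.155 and Cfb at 0.0333 last. Per kb of coding length, which for Cd59a is 372 of 1806 bases, Cd59a came first in all 3 lines, with a range in HD-het (1.74 to 2.09) that overlapped that of C1ra (1.62 to 2.07).

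The copies followed their partners closely for C1r, C1s and CD59. C1rb had 71, 270 and 632 reads over the control, HD-het and HD-homo libraries, and C1ra held 57.2 to 66.7% of the reads of the pair in every library. C1rb was higher than control by log2 fold changes of 1.83 in HD-het and 2.97 in HD-homo cells (adjusted p = 6.00e-05 and 8.77e-07). C1s2, the copy of C1s1, had 11, 126 and 146 reads over the 3 lines, and C1s1 held 60.4 to 65.3% of the pair in the HD libraries. Its log2 fold changes against control were 3.39 in HD-het and 3.53 in HD-homo cells (adjusted p = 4.34e-05 and 3.33e-05).

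Cd59b was lower than control in HD-het (log2 fold change −2.23, adjusted p = 1.49e-05) and higher in HD-homo cells (0.91, adjusted p = 0.00147), and Cd59a held 63.9 to 75.8% of that pair. Cd55b, whose expression is known mainly from testis, had 0 reads in control and HD-het libraries and 4, 14 and 6 in HD-homo. C4a had 207, 152 and 207 reads over the 3 lines, and C4b held 39.5 to 43.5% of the pair in control and HD-het but 49.2 to 56.0% in HD-homo libraries. C4a gave −0.16 in HD-homo against control (adjusted p = 0.657), and without HD-homo replicate 3 it was −0.59 (adjusted p = 0.0485). When the reads of each pair were summed, the difference of C4 between the HD lines fell to 0.71 and no longer passed (adjusted p = 0.0705).

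**Figure D4:**
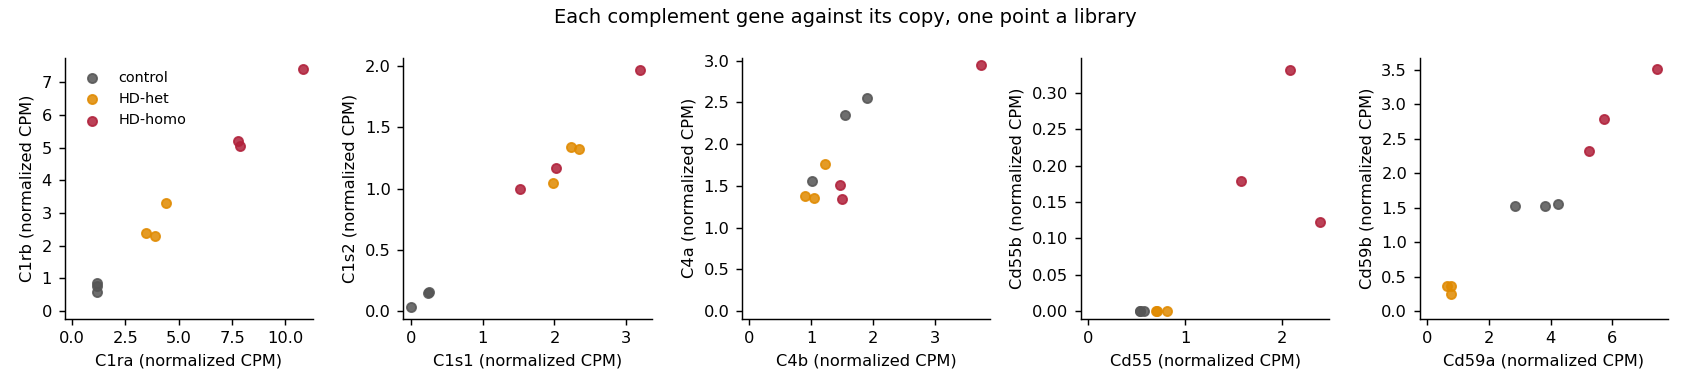
Normalized CPM of 5 complement genes (horizontal) and of their copies (vertical), with a point for each library. The C1r, C1s and CD59 pairs are high and low in the same libraries, C4b and C4a overlap between the lines, and Cd55b is at 0 outside HD-homo.

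Outside the 8 genes, 52 other complement genes were looked up. Of these, 9 had no read in any library and 21 passed the filter on low counts. HD-homo against control gave 11 higher and 2 lower genes and 8 that did not pass. HD-het against control gave 8 higher, 6 lower and 7 that did not pass, and HD-homo against HD-het gave 10 higher, 5 lower and 6 that did not pass. The 13, 14 and 15 of 21 that passed are close to the 58.6%, 65.1% and 71.6% of all genes that passed. Over all genes, 29.6% were higher and 28.9% lower in HD-homo against control. These shares were 33.8% and 31.4% in HD-het against control, and 36.0% and 35.6% in HD-homo against HD-het. The counts describe the list and are not a result about complement genes. The median log2 fold change of the 21 was 0.41, 0.00 and 0.36, against 0.01, 0.03 and 0.00 over all genes tested. The 0.00 for HD-het against control is the value of C4bp, which had 0 reads in both lines. Thbd was at or under the floor in both. These 2 genes passed the filter only through HD-homo and could not have passed the test in that comparison. C1qa, C1qb and C1qc, the recognition subunits of C1, had no read, and neither did the mannose-binding lectins Mbl1 and Mbl2, the terminal components C7 and C8b, the protease factor I (Cfi) or the receptor Vsig4. C2, the partner of C4 in the convertase, had at most 2 reads in control, 0 in HD-het and 6, 7 and 4 in HD-homo libraries and was not tested.

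Among activators, Masp1, a protease of the lectin pathway, was at 21.8 normalized CPM in control, 221 ± 14.2 in HD-het and 110 ± 63.5 in HD-homo cells (SD, n = 3). Against control, it was 10.2-fold higher in HD-het (log2 fold change 3.34, adjusted p = 5.06e-06) and 5.05-fold higher in HD-homo (2.33, adjusted p = 7.54e-05). HD-homo was below HD-het (−1.01, adjusted p = 0.00918), and without its replicate 3 the HD-homo mean was 73.8. Masp2, the protease that cleaves C4 and C2 in that pathway, went the other way and was below control in HD-het (−1.72, adjusted p = 8.26e-04). The ficolin Fcna had at most 2 reads in control, 5, 3 and 0 in HD-het and 22, 29 and 10 in HD-homo libraries. Its ratio of HD-homo to control was 17.9, with an exact counting interval from 5.84 to 89.1 (adjusted p = 7.81e-04). Fcna too passed the low-count filter only through HD-homo, so this call is not independent of that selection. Colec12, a collectin of the cell surface, was above control in HD-het (1.06, adjusted p = 1.15e-06) and HD-homo (0.41, adjusted p = 0.00158) and lower in HD-homo than it was in HD-het (−0.65, adjusted p = 3.10e-05).

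Among soluble regulators, C4bp, which binds C4b, had 0 reads in control and HD-het and 83, 93 and 371 in HD-homo libraries, at least 55.7-fold above control (adjusted p = 0.00148), with a mean of 5.27 normalized CPM, or 2.37 without HD-homo replicate 3. Clusterin (Clu), an inhibitor of the membrane attack complex, was at 3.92 normalized CPM in control, 11.6 in HD-het and 1.13 in HD-homo cells. Against control it was 2.97-fold higher in HD-het (adjusted p = 3.84e-06) and 3.48-fold lower in HD-homo (adjusted p = 5.88e-06), and HD-het exceeded HD-homo 10.3-fold (adjusted p = 1.55e-08).

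Among membrane regulators, thrombomodulin (Thbd), which limits coagulation and complement on cell surfaces, had 8422, 12339 and 12360 reads in HD-homo libraries and at most 3 in any other. The ratio of HD-homo to control was 5828, with an exact counting interval from 2497 to 17950 (adjusted p = 1.21e-11). Susd4, a complement inhibitor, was lower than control in HD-het (log2 fold change −2.43, adjusted p = 0.00435) and higher in HD-homo cells (1.76, adjusted p = 0.00175), in the same directions as Cd59a and Cd59b. Cd46 gave −0.66 in HD-homo against control (adjusted p = 0.142), and without HD-homo replicate 2 it was −1.22 (adjusted p = 0.0162). Among receptors, the integrin subunit Itgb2 was lower than control in HD-het (−1.10, adjusted p = 0.00120) and HD-homo cells (−2.22, adjusted p = 1.72e-05). Cd93 was below control in HD-het (−2.33, adjusted p = 6.64e-05), and HD-homo against control gave −0.50 (adjusted p = 0.140), or −0.97 without HD-homo replicate 3 (adjusted p = 8.12e-04). The receptors for the fragments of C3 and C5, namely C3ar1, C5ar1 and C5ar2, had at most 7 reads in any library.

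**Figure D5:**
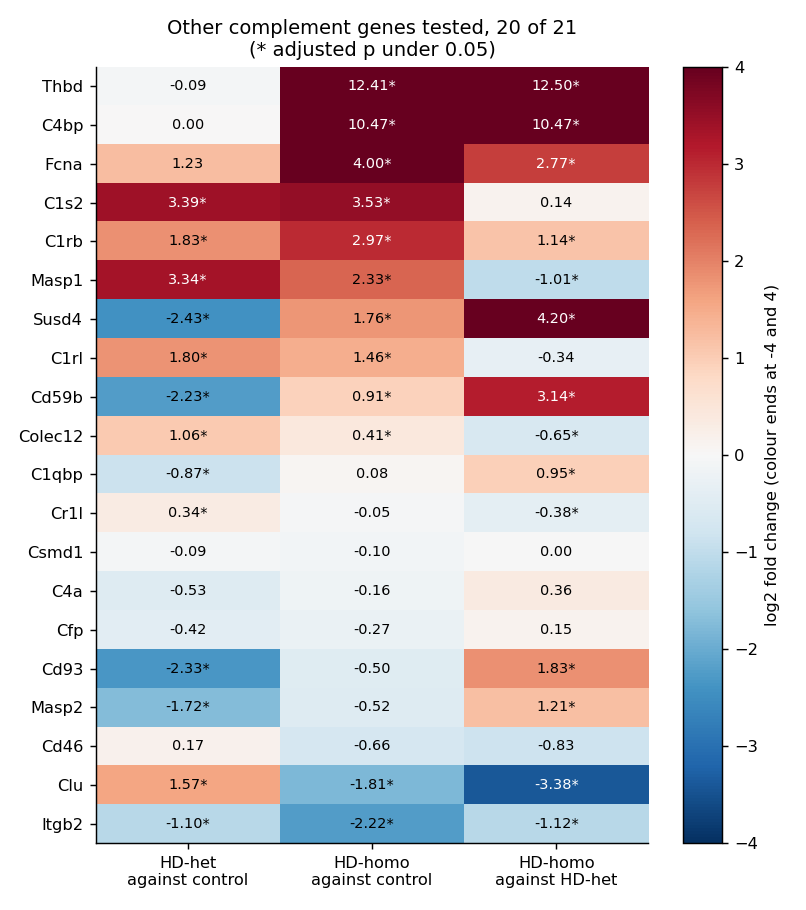
Log2 fold change of 20 of the 21 other complement genes tested (rows) in the 3 comparisons (columns); colour and number give the fitted value and an asterisk an adjusted p under 0.05. Thbd and C4bp head the list for HD-homo, and Clu and Itgb2 are its lowest. Fitted values against a line at 0 or under the floor (Thbd, C4bp and Fcna) depend on the prior count.

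Of 10 transcription factors known to act at complement promoters, 7 were above and 0 below control in HD-homo, and 5 were above and 4 below it in HD-het. Between the HD lines 8 were higher and 2 lower in HD-homo. Over all genes tested, 58.6%, 65.1% and 71.6% passed in these comparisons. The shares higher were 29.6%, 33.8% and 36.0%, and the shares lower 28.9%, 31.4% and 35.6%. Nothing particular to the factors is read from their counts. Stat2, which carries interferon signals to the nucleus, was higher than control by log2 fold changes of 0.29 in HD-het and 1.79 in HD-homo cells (adjusted p = 0.0164 and 1.96e-08). Its DNA-binding partner Irf9 was also higher in both (0.81 and 2.29, adjusted p = 0.00209 and 7.11e-07). Irf1 was lower than control in HD-het (−0.80, adjusted p = 3.22e-04) and higher in HD-homo cells (0.43, adjusted p = 0.0142). Stat3 (−0.22 and 0.63, adjusted p = 0.0153 and 1.11e-05) and Nfkb1 (−0.40 and 0.19, adjusted p = 7.76e-05 and 0.0110) also went down in HD-het and up in HD-homo. Whether these factors play a part in the complement levels was not tested.

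The genes whose pattern over the 9 libraries was most like that of each complement gene were found by the root mean square (RMS) difference of centred log2 normalized CPM, among all genes tested. For C1ra these were Eepd1, C1rb and C1qtnf1, at RMS differences of 0.156, 0.156 and 0.168. For C3 they were Abi3bp, Pdgfra and Sbsn, at 0.271, 0.336 and 0.432. For C1s1 the nearest was its copy C1s2 at 0.578, then Vnn1 and Rnf39, and for Cd59a they were Rab20, Hoxd9 and Cd59b at 0.214, 0.233 and 0.235. Cd55 was followed most closely by Rgl3, Aldh3b3 and Ucp2, C4b by Tmem130, Tmem117 and Gng8, and Serping1 by Hoxb8, Wnt7b and Add2. Copies were thus among the 3 nearest for C1ra, C1s1 and Cd59a, and the part of shared reads in this was not tested.

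Genes that are not complement genes but lie within 100 kb of a member were counted as well. Over all genes tested, 58.6% passed in HD-homo against control, 29.6% higher and 28.9% lower. In HD-het against control 65.1% passed, 33.8% higher and 31.4% lower. Nothing particular to the neighbours is read from their counts. The single tested neighbour of C1ra was lower in HD-het (−0.34) and higher in HD-homo cells (0.28). Beside C3, 3 such genes were tested, of which 0 were above and 1 was below control in HD-homo, with fitted log2 fold changes from −0.66 to −0.14. HD-het also had 0 above and 1 below control there. Beside C4b 7 were tested, of which HD-homo had 1 above and 3 below control and HD-het 1 above and 4 below. Beside Cfb 8 were tested, of which HD-homo had 0 above and 6 below control and HD-het 1 above and 6 below. The C4b and Cfb sets overlap, so some genes are counted in both. Beside Serping1 10 were tested, of which HD-homo had 5 above and 2 below control and HD-het 6 above and 1 below. The single tested neighbour of Cd59a was higher in HD-het (0.42) and HD-homo cells (0.24), where Cd59a was lower and higher.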

How the data were processed

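Poly(A) RNA of the 3 lines was made into 9 directional libraries. The deposited table gives whole-number read counts per gene and library, which the authors' processing notes connect with cutadapt, Bowtie 1.1.2, RSEM 1.3.0 and DESeq2 and the builds GRCm38.p5 and mm10, without order. If RSEM made the counts they are rounded estimates, which bears on how reads were split between near-identical copies. Columns were matched to samples by name. Genes were filtered with filterByExpr (minimum count 10, line as group), scaled by TMM and tested in edgeR 4.0.16 (R 4.3.3) with the quasi-likelihood test over all 9 libraries, with line as the only factor and Benjamini-Hochberg adjustment over 13508 genes. SE was the absolute log2 fold change divided by the square root of the F statistic of that test. The procedure was run on simulated data with the same dispersion for every gene. That run does not measure its error rates on these libraries, whose replicates differ more unevenly. Transcripts and positions came from GENCODE vM21. Sequences were compared with Biopython 1.88. Folds against a line at 0 reads were computed against a floor of 3 reads in each library, and ratios of C1s1, C3, Serping1, Fcna and Thbd to a line with few reads carry an exact 95% counting interval. The complement genes, lists and tests were chosen with earlier results of these data known. Named in the text were all 8 genes and their copies, and of the other complement genes the 5 highest and 5 lowest log2 fold changes in each comparison, with defining genes without reads or close to none. Transcription factors were named where they passed in both comparisons with control, and 3 genes were named for likeness. Lpcat3, Emg1, Phb2, C2 and the C3a and C5a receptors were added after their values were seen. Some genes that these rules would name are not reported here.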

Additional observations from a re-analysis of the deposited data

How the results depend on the processing

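Scaling by DESeq2 size factors or by library totals alone, DESeq2 1.42.0 in place of edgeR, an adjusted p under 0.01, a fold change of at least 1 on the log2 scale, only the 2 lines compared and summed copies left the counts of genes passed within 1.5 times. Without a low-count filter, 20 of the other complement genes passed in HD-homo against control. Cfb then also passed there (adjusted p = 0.0277) and against HD-het (adjusted p = 0.0194), which made 7 of the 8 genes in each. These Cfb calls rest on 10 reads in HD-homo and 0 in the other lines and exist only without the filter. The fitted value of Cfb depends on the prior count. With at least 10 reads required in every library, only 4 of the 8 genes and 11 of the others were tested. Then 3 of the 8 passed in HD-homo against control and 2 in HD-het against control, and 6, 9 and 8 of the others passed in HD-homo against control, HD-het against control and HD-homo against HD-het. Leaving out each library in turn gave 6, 4 to 5 and 5 to 6 of the 8 genes in these comparisons and 13 to 16, 14 to 16 and 15 to 16 of the others. Among the 8 genes, the signs that turned were those of C1s1 between the HD lines, which ranged from −0.32 without HD-homo replicate 3 to 0.26 without HD-homo replicate 2 and was −0.039 without HD-het replicate 3, and C4b in HD-homo against control, from −0.012 without HD-homo replicate 3 to 0.82 without HD-homo replicate 2. None of these passed. Of the other complement genes, 6 turned sign in some of these fits, none of which passed there (lowest adjusted p = 0.467). With the replicate number as a block, 6, 4 and 6 of the 8 genes and 13, 15 and 16 of the others passed. Deviations of libraries with the same number correlated between −0.00919 and 0.122 across lines. Libraries of different numbers were not compared in this way, so these values cannot decide whether equal numbers pair. C4b was the only gene of the 8 to lose a call and C3 the only gene to gain one when a library was left out. Counts under about 30 reads a library limit C1s1 in control, C3 in control and HD-het, Cd55 in control and HD-het, Cd59a in HD-het, and Serping1 and Cfb.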
